A study of Mus musculus with 2 samples.

Results

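Glul, Slc1a3, Rlbp1, Aqp4, Apoe, Vim, Gfap and Dkk3 are 8 genes whose products mark Müller glia, the radial glial cell of the vertebrate retina. Their chromatin was described in retina of mouse embryos at embryonic day 14.5, measured by DNase-seq. The genes were chosen by name, and they are 8 of the 21938 protein-coding genes annotated on mm10 (GENCODE release M21). For each gene, every DNase I peak was taken that overlapped the gene body or the 50 kb on either side. A peak within 1 kb of any annotated transcription start site (TSS) of the gene was counted as its own promoter peak. A peak more than 1 kb from the TSS of every gene was called distal.

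All libraries came from 1 group, retina of the strain labelled B6NCrl, pooled from male and female embryos, with 2 biological replicates made for ENCODE. The replicates have separate biosample labels but 1 donor label between them. Replicate 1 was sequenced on one instrument model that replicate 2 was not, so instrument and replicate cannot be told apart. With no second group, age or treatment there was no contrast to test, and every value below is a description given per library.

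DNase-seq maps DNA that is accessible to the nuclease DNase I, which includes active and poised promoters, enhancers and insulators. Müller glia are the last cell class that retinal progenitors produce, mostly after birth, and they share many genes with those progenitors. Mature Müller glia clear glutamate, recycle retinoids for cones, move water and potassium and carry lipids. Gfap, which astrocytes express strongly, is switched on in Müller glia mainly after injury. The data hold no RNA, so they say where chromatin could be cut and not which gene was transcribed.

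Replicate 1 had 165269 peaks and replicate 2 had 219308. Almost every peak is 150 bp long, and each carries a deposited score between 1 and 150, whose meaning is not given in the sources used here. Its median was 29 in replicate 1 and 48 in replicate 2, so scores were turned into percentile ranks within each library, with the strongest peak near 100. Hotspots are longer stretches of cutting, listed with a −log10 false discovery rate (FDR) that runs between 1.3 and a ceiling of 100. No read numbers are in the files, so the depth is unknown and the lack of a peak is not evidence of closed chromatin. The retinal progenitor genes Pax6 (ranks 98.3 and 99.3), Rax (96.5 and 98.7), Lhx2 (99.8 and 99.9), Sox2 (96.5 and 97.8) and Six3 (94.8 and 97.3) had a promoter peak in both libraries. Genes of other cells that a dissected retina could hold were also counted. Both libraries had a promoter peak at 7 of 8 optic nerve astrocyte genes, 6 of 9 pigment epithelium genes and 3 of 6 endothelial genes. They had one at 3 of 6 lens genes and 1 of 7 microglial genes. The share of all protein-coding genes was 68.8%, so these counts do not show which of those cells were present. Neither library had a promoter peak at S100b of astrocytes, Rpe65 and Tyr of pigment epithelium, or Cdh5, Pecam1 and Tie1 of endothelium. None was found either at Aif1, C1qb, C1qc and Cx3cr1 of microglia, or Cryaa and Cryab of lens. Other genes of the same lists had strong peaks in both. The highest were Pmel of pigment epithelium (ranks 96.1 and 98.0) and Kdr of endothelium (95.9 and 98.0). Those of lens and microglia were Bfsp1 (88.9 and 86.9) and Tmem119 (82.2 and 89.6). The strongest astrocyte promoters were Pdgfra at ranks 94.2 and 96.4, Slc1a2 at 87.0 and 87.8, and Fabp7 at 81.2 and 83.6 in replicates 1 and 2. In tissue as a whole, fewer cells with an open site and less cutting per cell cannot be told apart, and what such cells add to the peaks below was not tested.

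At embryonic day 14.5, before most Müller glia are born, 7 of the 8 genes had an own promoter peak in both libraries, and Aqp4 had one in replicate 2 alone. In replicate 1 the count was 7 of 8, where 69.7% of all protein-coding genes had one, and in replicate 2 it was 8 of 8, against 71.3%. Over both libraries the share of all protein-coding genes was 68.8%. The count is near that background and is no result about these genes. The strength of their promoter peaks spread widely. Glul and Vim stood in the top few percent of all peaks, Dkk3 and Gfap ranked above 90, Slc1a3 and Apoe lay in the middle range, and Rlbp1 and Aqp4 were near the middle of all peaks, which include the many weaker distal ones.

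Across the 7 genes with a value in replicate 1, the strongest own promoter peak had a median rank of 91.6 and a range of 60.5 to 99.6. Across the 8 genes in replicate 2 the median was 89.9 and the range 53.0 to 99.3. All protein-coding genes with a promoter peak had a median of 95 in replicate 1, with quartiles of 87.0 and 97.9, and 95.9 in replicate 2, with quartiles of 88.3 and 98.2. Glul and Vim alone were above that median, in both libraries. A rank above 90 in both libraries was found at 4 of the 8 genes (Glul, Vim, Dkk3 and, through a noncoding start, Gfap) and at 47.7% of all protein-coding genes. The order Glul, Vim, Dkk3, Gfap held in both libraries. Below them, Slc1a3 stood above Apoe and Apoe above Rlbp1, again in both.

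**Figure D1:**
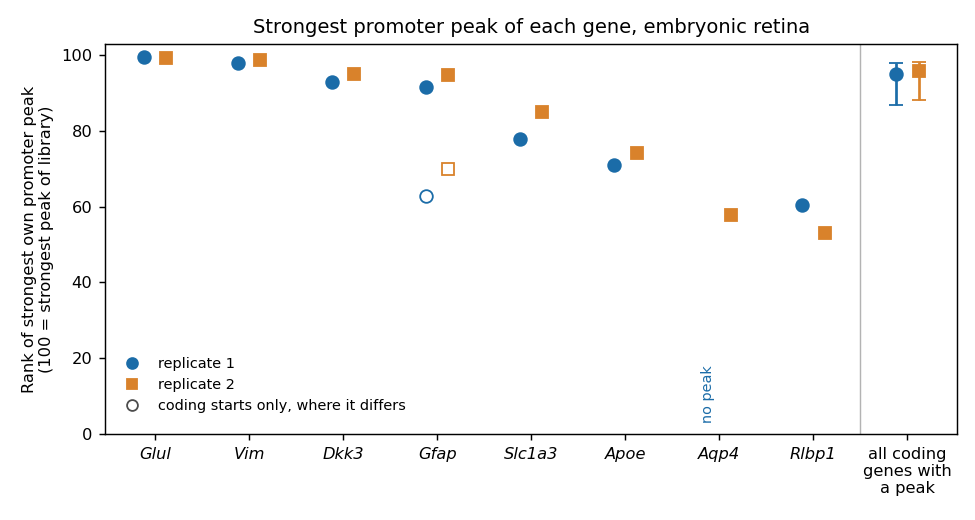
Rank of the strongest own promoter peak of each gene among all peaks of its library (vertical axis, percentile, with the strongest peak near 100), 1 point per replicate, with open points for Gfap when only coding starts count. At the right, points and bars are the median and quartiles of all protein-coding genes with a promoter peak. Glul and Vim lie above that median (95 and 95.9), Rlbp1 lies at 60.5 and 53.0, and Aqp4 has a point in replicate 2 alone.

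Promoters rich in CpG dinucleotides are cut in most tissues, so each gene was also set beside genes of like CpG content, the ratio of observed to expected CpG within 500 bp of the 5′ end, in 10 bins. Glul had a ratio of 0.696 and Slc1a3 0.554, in bins where 97.9% and 94.2% of genes had a promoter peak in both libraries. Vim with 0.529 and Dkk3 with 0.426 fell in a bin where 83.6% did. Apoe with 0.381 and Aqp4 with 0.266 fell in a bin with 54.4%, while Rlbp1 with 0.262 and Gfap with 0.234 fell in a bin with 32.5%. The low-ranked promoters of Rlbp1 and Apoe were thus CpG-poor, and so was that of Gfap, which ranked above 90. Slc1a3 also ranked below the median of genes with a promoter peak, at 78.0 and 85.1, but fell in the bin with 94.2%. For Aqp4 the ratio describes the 5′ end, whereas its replicate 2 promoter peaks lay 7351 and 7731 bp inside the gene.

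The sequences of 5 promoter peaks are shown. Those of Glul (the strongest) and Rlbp1 (the weakest found in both libraries) are the extremes of the promoter ranks. The others are the one at the lone Dkk3 start and the pair at Gfap that lie at different starts. All are the replicate 1 peaks, read 5′ to 3′ on the + strand of mm10, in lower case. Capitals mark matches on either strand to letters searched for: the E-box CAGCTG, the SOX form ACAAAG, the RBPJ letters TGGGAA, and the CTCF core (by name).
Glul promoter, chr1:153899796-153899945: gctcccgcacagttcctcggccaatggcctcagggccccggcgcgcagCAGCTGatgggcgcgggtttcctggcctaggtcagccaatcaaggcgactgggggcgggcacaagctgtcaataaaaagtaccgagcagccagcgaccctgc
Dkk3 promoter, chr7:112159036-112159185: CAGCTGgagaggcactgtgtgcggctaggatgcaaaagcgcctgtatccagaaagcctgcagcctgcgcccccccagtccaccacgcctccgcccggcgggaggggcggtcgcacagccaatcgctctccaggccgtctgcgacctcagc
Rlbp1 promoter, chr7:79386836-79386985: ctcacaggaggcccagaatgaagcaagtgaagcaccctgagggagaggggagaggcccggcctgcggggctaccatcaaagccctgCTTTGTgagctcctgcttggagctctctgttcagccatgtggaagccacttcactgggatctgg
Gfap noncoding start, chr11:102900936-102901085: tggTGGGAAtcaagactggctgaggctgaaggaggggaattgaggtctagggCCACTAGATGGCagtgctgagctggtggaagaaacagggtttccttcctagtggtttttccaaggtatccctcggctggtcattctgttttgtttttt
Gfap coding start, chr11:102897936-102898085: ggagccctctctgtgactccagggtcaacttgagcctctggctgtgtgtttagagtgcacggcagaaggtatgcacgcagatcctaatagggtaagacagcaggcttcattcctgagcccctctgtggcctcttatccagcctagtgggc
The Glul and Dkk3 peaks are GC-rich, at 66.0% and 68.7% G or C, and hold 11 and 12 CpG dinucleotides. The strongest Vim promoter peak, not printed, outranked that of Dkk3 in both libraries and has 61.3% G or C and 7 CpG. The Rlbp1 peak is also GC-rich at 60.0% but holds 2 CpG. The noncoding-start peak of Gfap has 50% G or C and 1 CpG.

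Glul encodes glutamine synthetase, which turns the glutamate taken up from synapses into glutamine. The gene lies at chr1:153899944-153909723 on the + strand. Its strongest promoter peak had scores of 132 and 140 in replicates 1 and 2 and ranks of 99.6 and 99.3. Among protein-coding genes with a promoter peak this was higher than 95% and 89.4% of them. The peak centre lay 73 and 93 bp before the annotated start, within a single hotspot of 2588 and 2774 bp at the FDR ceiling. A further peak, 3267 and 3307 bp into the gene, scored 85 and 124 (ranks 89.9 and 95.7) and lay within 1 kb of the start of a noncoding Glul transcript. The promoter windows of Teddm2 and Mir8114 overlap that of Glul, so the first peak counts for all of them. Outside the promoter Glul had the fewest distal peaks of the 8 genes, 5 and 7, with a median rank of 20.2 and 25.4.

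Slc1a3 encodes GLAST, the main glutamate transporter of Müller glia, and lies at chr15:8634124-8710764 on the − strand. Its strongest promoter peak scored 58 and 94, at ranks of 78.0 and 85.1. It lay 293 and 273 bp inside the 5′ end, with a weaker one (41 and 60) 953 and 913 bp in. Its rank exceeded that of 15.6% and 21.1% of protein-coding genes with a promoter peak. Slc1a3 therefore combined a below-median promoter peak with the most distal peaks of the 8 genes, 22 and 29, all nearer to an Slc1a3 start than to that of another protein-coding gene.

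Rlbp1 encodes CRALBP, the retinaldehyde-binding protein that takes part in the visual cycle in Müller glia and pigment epithelium. It lies at chr7:79374870-79387048 on the − strand. A single promoter peak was found in each library, with scores of 36 and 50 and ranks of 60.5 and 53.0. It covered the starts of 2 coding transcripts, and its hotspot had −log10 FDR values of 2.74 and 5.7, far under the ceiling. Only 7.07% and 5.92% of protein-coding genes with a promoter peak ranked lower. Pigment epithelium also expresses Rlbp1. Of the 9 pigment epithelium genes, 6 had a promoter peak in both libraries, against 68.8% of all protein-coding genes. Pmel (ranks 96.1 and 98.0) was the strongest, while Rpe65 and Tyr had none. The part of those cells in the Rlbp1 peak was not tested.

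Aqp4 encodes the aquaporin of glial endfeet and lies at chr18:15389496-15410982 on the − strand. No peak or hotspot of either library lay within 1 kb of the 5′ end, where 5 coding transcripts begin. Replicate 2 alone had promoter peaks, at internal coding starts, with scores of 54 and 39 and ranks of 57.7 and 35.6. The stronger lay 127 bp inside a coding start, in a hotspot with a −log10 FDR of 3.41. The 2 replicates thus differ on whether Aqp4 had a promoter peak at all. No sequence of this locus is shown.

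Apoe encodes apolipoprotein E, the main lipid carrier secreted by glia, and lies at chr7:19696109-19699188 on the − strand. Both libraries had 3 own promoter peaks. The one over the 5′ end scored 43 and 67 (ranks 67.8 and 69.4). A slightly stronger peak, 897 and 917 bp inside the gene and over 2 internal coding starts, scored 47 and 74 (ranks 71.0 and 74.1). The promoter hotspot had a −log10 FDR of 5.4 in replicate 1 and reached 100 in replicate 2.

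Vim encodes vimentin, the intermediate filament protein of progenitors and Müller glia, and lies at chr2:13573927-13582826 on the + strand. Replicate 1 had 4 own promoter peaks and replicate 2 had 6. The strongest lay 344 and 324 bp inside the 5′ end with scores of 122 and 137 (ranks 97.9 and 98.7), and a second over the 5′ end itself scored 112 and 119. The hotspot around them was the longest promoter hotspot of the 8 genes, at 3297 and 4376 bp.

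Gfap encodes the glial fibrillary acidic protein and lies at chr11:102887336-102900912 on the − strand. Its strongest peak, with scores of 91 and 120 and ranks of 91.6 and 94.7, lay 99 and 119 bp before the start of a noncoding transcript. The first coding start is 3712 bp further into the gene. Within 1 kb of the coding starts the best peak scored 38 and 68 (ranks 62.9 and 70.1) and lay 811 and 831 bp upstream of the first coding start. Its hotspot had a −log10 FDR of 5.7 and 100. Neither a peak nor a hotspot of either library covered a coding start. When only starts of coding transcripts were used, Gfap stayed among the 7 genes with a promoter peak in both libraries (67.5% of all protein-coding genes), but only 7.69% and 10.6% of the genes with such a peak then ranked lower, close to the place of Rlbp1.

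**Figure D2:**
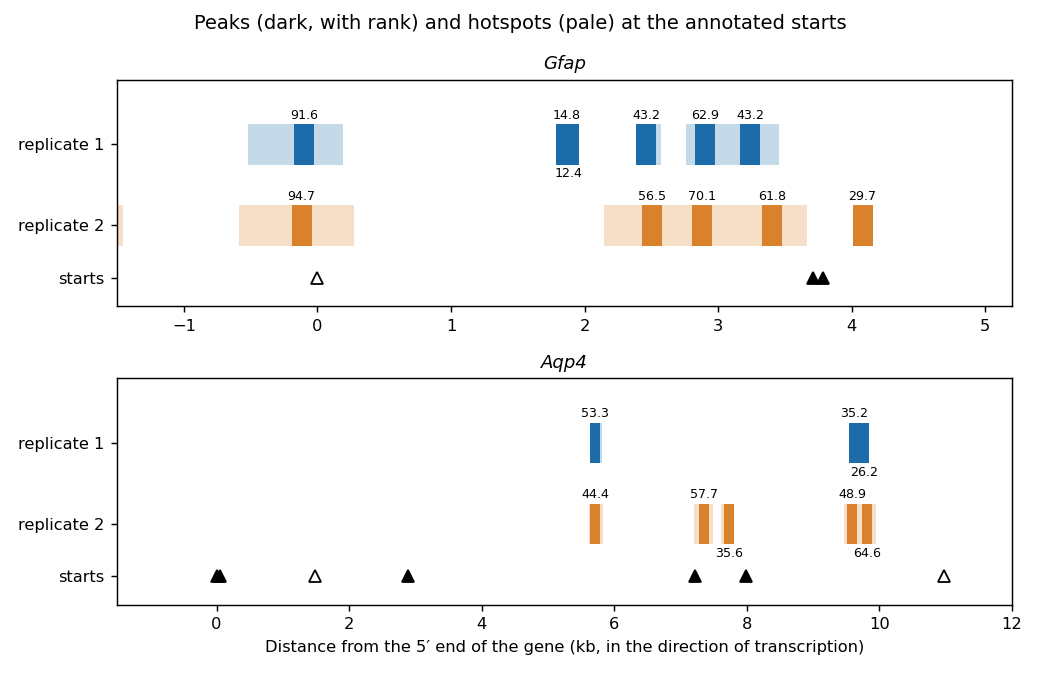
Peaks (dark blocks, labelled with their rank) and hotspots (pale blocks) around the annotated starts of Gfap and Aqp4, by distance from the 5′ end of the gene in the direction of transcription (kb). Filled triangles are starts of coding transcripts and open triangles are starts of noncoding ones. In Gfap the peaks ranked 91.6 and 94.7 sit by the noncoding start, and in Aqp4 no block of either replicate lies by the 5′ end.

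A STAT-type site ahead of Gfap is known as a switch for astrocyte differentiation, where its methylation keeps STAT3 from binding in early neural precursors. Within 2 kb upstream of the first Gfap coding start the STAT letters (by name) matched at 2 places, which were looked up after the peaks had been seen. They are shown with 10 bases either side, on the + strand of mm10, with the match in capitals.
Gfap STAT match 1, chr11:102898628-102898656: ctcaatagacTTCTCGGAAagcatcgaag
Gfap STAT match 2, chr11:102899096-102899124: aggtatggaaTTCACAGAAagccaactac
The first match, 1438 to 1446 bp upstream, was in no peak of either library, with gaps of 112 and 152 bp to the nearest peak. It lay in a hotspot in replicate 2 and 130 bp outside one in replicate 1. The second, 1906 to 1914 bp upstream, was in a weak peak of replicate 1 (score 16, rank 14.8) and in none of replicate 2. It was in no hotspot of either library, with gaps of 72 and 336 bp to the nearest. The first match contains a CpG, and the second has none in its letters or printed flanks. Which of the matches, if either, is the studied switch was not determined here.

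Dkk3 encodes a secreted protein of the dickkopf family, a group named for its Wnt inhibitors, and is expressed by progenitors and Müller glia. It lies at chr7:112116017-112159057 on the − strand and has 1 annotated start. The strongest peak lay 54 bp before that start in both libraries, with scores of 97 and 122 and ranks of 93.0 and 95.2. No other gene has a promoter peak in its window.

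Promoter hotspots gave the same 7 of 8 genes in both libraries, where 69.1% of all protein-coding genes had one. The ceiling of the −log10 FDR was reached in both at 5 genes (Glul, Slc1a3, Vim, Gfap and Dkk3) and at 63% of all protein-coding genes. Rlbp1 and Apoe were the genes with a promoter hotspot in both libraries that did not reach the ceiling in both.

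The median density of distal peaks was higher around the 8 genes than over all protein-coding genes. Together the windows held 126 peaks in replicate 1 and 155 in replicate 2, of which 22 and 26 were own promoter peaks, 19 and 20 lay at promoters of other genes, and 85 and 109 were distal. Of the distal peaks, 9 and 14 were exonic, 37 and 40 intronic and 39 and 55 intergenic. The median over the 8 genes was 7.63 distal peaks per 100 kb in replicate 1 and 11.3 in replicate 2, a mean of 9.45 ± 2.58 (SD, n = 2). Over all protein-coding genes the median was 4.73 (quartiles 2.08 and 8.01) in replicate 1 and 6.38 (3.28 and 9.95) in replicate 2, a mean of 5.55 ± 1.17 (SD, n = 2). In replicate 1, 7 of the 8 genes were above the median of all genes, and in replicate 2 all 8 were. Glul was just under it in replicate 1 (4.55) and level with it, as rounded, in replicate 2 (6.38). The microglial genes had medians of 11.6 and 11.4 in replicates 1 and 2, the endothelial genes 7.84 and 10.2, and the lens genes 8.0 and 7.57. The optic nerve astrocyte genes had 6.47 and 8.87, and the pigment epithelium genes 4.25 and 5.5. A density above that of all genes was thus not particular to the 8 genes.

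Slc1a3 had 12.5 and 16.4 distal peaks per 100 kb, more than 91.1% and 94.1% of protein-coding genes. Gfap had 15 and 8.80 (17 and 10 peaks), and so was the densest in replicate 1 and below 5 of the others in replicate 2. Rlbp1 had 6 and 13 distal peaks and Aqp4 had 7 and 14. These are the genes with the weakest promoters, and the ratio of their counts between the libraries was the widest of the 8, where replicate 2 has more peaks in all. Vim and Apoe each had 9 and 12 distal peaks, and Dkk3 had 10 and 12. Apoe stands in a gene-dense stretch with promoters of Apoc1, Clptm1, Gm20512, Nectin2 and Tomm40 in its window, and none of its distal peaks had Apoe as the nearest protein-coding gene. In contrast, every distal peak around Slc1a3 and Aqp4 was nearest to that gene.

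**Figure D3:**
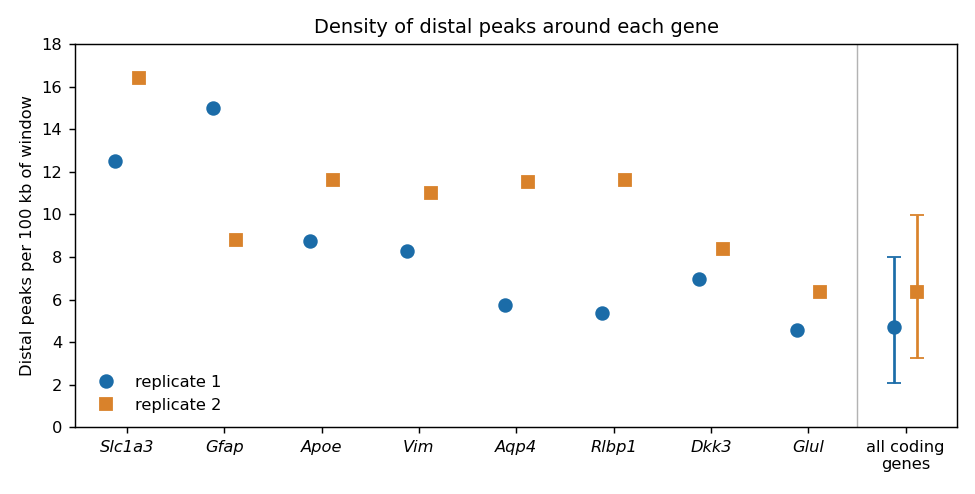
Distal peaks per 100 kb of window for each gene (vertical axis), 1 point per replicate, and at the right the median (4.73 and 6.38) and quartiles of all 21938 protein-coding genes. Slc1a3 is high in both replicates at 12.5 and 16.4, and Gfap is at 15 and 8.80.

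Of the distal peaks in the windows, 64 of 85 in replicate 1 (75.3%, exact Clopper-Pearson 95% interval 64.7 to 84.0) and 62 of 109 in replicate 2 (56.9%, 47.0 to 66.3) overlapped a peak of the other library. Among all distal peaks the shares were 71.2% and 49.9%, inside both intervals, which cover counting error only. The intervals also treat peaks as independent, although these cluster in 8 windows and some pair with the same peak of the other library. The median rank of the distal peaks in the windows was 57.9 and 59.8, against 43.2 and 44.4 over all distal peaks. All 8 genes had at least 1 shared distal peak, as did 86.4% of all protein-coding genes. There were 64 shared pairs in all: 15 at Slc1a3, 10 at Gfap, 8 each at Vim, Apoe and Dkk3, 7 at Aqp4, 5 at Rlbp1 and 3 at Glul. Pairs ranked above 90 in both libraries numbered 7, of which 4 were at Dkk3, 2 at Slc1a3 and 1 at Apoe. They were 10.9% of the 64, against 4.07% of all 85078 shared distal pairs, a difference that was not tested.

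**Figure D4:**
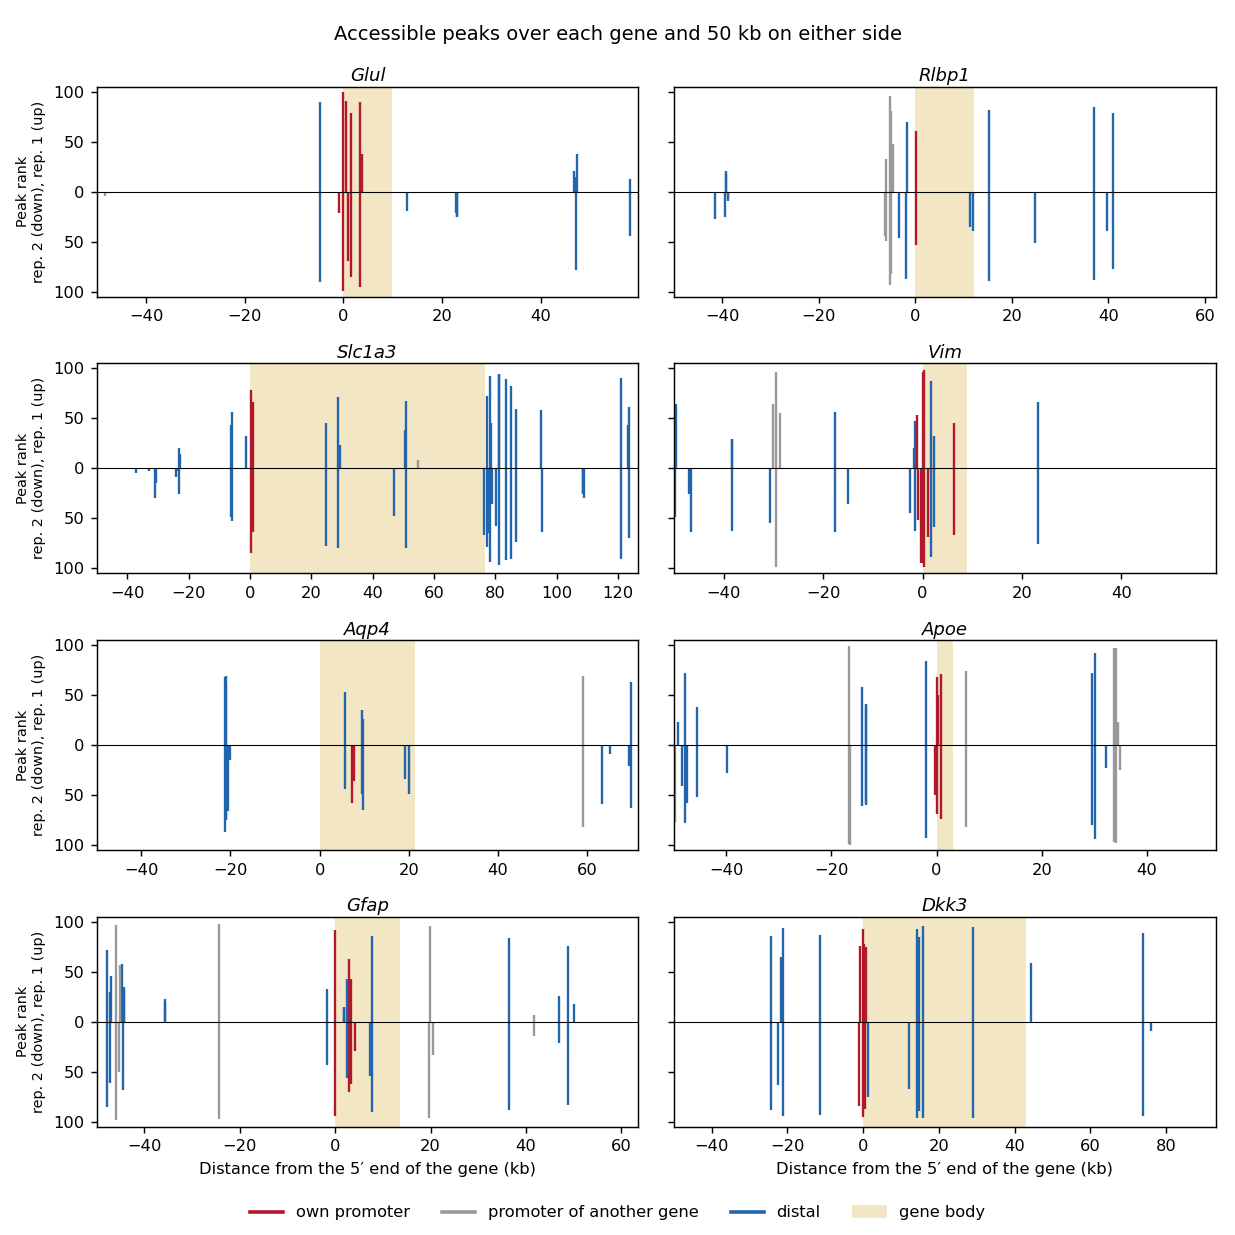
Position of every peak in the window of each gene, by distance from the 5′ end in the direction of transcription (kb), with the gene body shaded. Line height is the peak's rank, drawn upwards for replicate 1 and downwards for replicate 2, and colour gives the peak class. Distal peaks of Slc1a3 crowd just beyond the 3′ end of the gene, where replicate 1 has 8 and replicate 2 has 9 within 12 kb.

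Dkk3 had the highest-ranked distal peaks of the 8 genes by their median, with median ranks of 88 and 91.3, and 8 of its 10 and 12 peaks ranked above 80 in each library. The strongest shared one lay 15.8 kb into the gene in an intron, with scores of 111 and 126 and ranks of 95.8 and 96.1. It was the one pair of the 64 above rank 95 in both libraries. Counted by gene, a pair past that limit lay in the window of 1 of the 8 genes and of 4.73% of all protein-coding genes. A pair 28.9 kb into the gene, with scores of 107 and 128, stood at that limit with ranks of 95 and 96.6. Further pairs lay 14.2 kb into the gene (96 and 125) and 21.3 kb upstream of it (101 and 119).

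Slc1a3 had its distal peaks mostly beyond the 3′ end. Of 22 and 29 peaks, 12 and 15 lay downstream of the gene, 5 and 5 in its body and 5 and 9 upstream. Within 12 kb of the 3′ end there were 8 and 9, with scores of 27 to 106 and 39 to 130. The strongest of them was 81.3 kb from the 5′ end, in intergenic sequence, with scores of 106 and 130 and ranks of 94.8 and 97.0. The next shared one lay 78.2 kb from the 5′ end (95 and 116, ranks 92.6 and 93.7), and a peak 81.1 kb from the 5′ end at rank 94.6 was found in replicate 1 alone. Both shared peaks outranked the Slc1a3 promoter peak in each library.

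The same held for Rlbp1. Its strongest shared distal peak, 37.1 kb beyond the 5′ end and in an intron of the neighbouring gene Abhd2, scored 72 and 101 (ranks 84.9 and 88.3), against 36 and 50 at the promoter. Others lay 15.3 kb beyond the 5′ end (65 and 104) and 1.80 kb upstream (45 and 99). Apoe had its strongest shared distal peak 30.1 kb from the 5′ end, nearest to Clptm1, with scores of 92 and 116 (ranks 91.8 and 93.7), also above its promoter. Aqp4 had none ranked above 90. Its best shared peak by the lower of the ranks, 20.9 kb upstream, scored 44 and 75 (ranks 68.6 and 74.8). Another, 21.2 kb upstream, scored 43 and 99 (ranks 67.8 and 87.4) and was thus the stronger in replicate 2.

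The strongest shared distal peak of Dkk3 also outranked its promoter. At Glul, Vim and Gfap the order was the reverse, with the promoter above every distal peak of the window. For Gfap that rests on the noncoding start, since the peak by its coding starts (ranks 62.9 and 70.1) was below its strongest distal peak. For Glul the best lay 4813 bp upstream in an intron of Teddm2 (84 and 106, ranks 89.6 and 90.4). For Vim it lay 1764 bp into the gene (79 and 101, ranks 87.8 and 88.3). For Gfap it lay in a coding exon, 7801 bp from the 5′ end (75 and 106, ranks 86.2 and 90.4).

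The strongest shared distal peaks of 5 genes are printed because matches to 2 of the searched sets of letters recur among them. They are the replicate 1 peaks on the + strand of mm10, 5′ to 3′, and capitals mark the CTCF core (Glul, Vim and Apoe) or TGGGAA, the letters bound by RBPJ, the Notch pathway's DNA-binding factor (Slc1a3 and Dkk3), on either strand.
Glul distal, chr1:153895056-153895205: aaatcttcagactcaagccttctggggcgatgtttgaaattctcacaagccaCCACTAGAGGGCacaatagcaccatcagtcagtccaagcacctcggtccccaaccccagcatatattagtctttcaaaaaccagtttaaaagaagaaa
Vim distal, chr2:13575616-13575765: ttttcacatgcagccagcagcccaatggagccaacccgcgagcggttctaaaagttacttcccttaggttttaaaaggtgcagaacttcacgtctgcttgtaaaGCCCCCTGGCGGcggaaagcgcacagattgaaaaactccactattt
Apoe distal, chr7:19668996-19669145: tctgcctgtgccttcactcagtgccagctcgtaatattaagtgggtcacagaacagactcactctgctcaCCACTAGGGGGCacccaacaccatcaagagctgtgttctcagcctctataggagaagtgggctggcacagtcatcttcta
Slc1a3 distal, chr15:8629356-8629505: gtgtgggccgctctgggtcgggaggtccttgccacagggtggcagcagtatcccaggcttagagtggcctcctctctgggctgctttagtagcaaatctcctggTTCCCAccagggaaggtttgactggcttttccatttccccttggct
Dkk3 distal, chr7:112143196-112143345: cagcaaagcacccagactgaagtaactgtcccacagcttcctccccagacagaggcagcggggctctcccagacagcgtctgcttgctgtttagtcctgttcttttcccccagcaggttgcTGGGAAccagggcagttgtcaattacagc
CTCF is the main insulator protein of vertebrates. Its core letters were in 3 of the 6 strongest shared distal peaks searched (those of Aqp4 and Gfap are not included), against 17.0% of all 85078 shared distal peaks. Among the 9006 shared distal peaks that ranked at or above 84.9 in both libraries, the lowest value of these 6, the share was 37.3%, so peaks this strong hold the letters more often in general. That second share was added after the matches had been seen. RBPJ letters were in 2 of the 6, against 16.1% of all shared distal peaks and 15.3% of the strong ones.

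SOX factors, NFI factors and the LIM homeodomain factor Lhx2 act in Müller glia development, and their letters were searched for in the named peaks. Neither the SOX letters AACAAT (8.12% of all shared distal peaks and 3.41% of 35648 shared promoter peaks), the shorter NFI letters TTGGCA (8.57% and 5.94%), the NFI full site (0.0705% and 0.0589%) nor the homeodomain letters TAATTA (6.40% and 1.76%) matched in any of the 6 distal or 8 promoter peaks searched. The SOX form ACAAAG matched in the promoter and in the strongest distal peak of Rlbp1, against 8.70% of promoter and 15.1% of distal peaks. The E-box CAGCTG matched at the Glul and Dkk3 promoters (11.2% of promoter peaks) and RBPJ letters at those of Slc1a3 and Gfap (12.7%). The STAT letters (2.92% and 4.31% of promoter and distal peaks), the AP-1 letters TGANTCA (2.46% and 4.82%) and the TEAD letters ACATTCC (1.43% and 2.50%) matched in none of the 14. With shares this low and so few peaks, the lack of a match does not set these genes apart from others. A match does not show binding, and no match says only that the letters are not in these windows.

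Other gene lists were set beside the 8 genes. Of 20 further Müller glia genes, 19 had a promoter peak in both libraries, all but Abca8a, with median ranks of 87.8 and 91.1 and 6.94 and 7.83 distal peaks per 100 kb. The strongest were Mfge8 (98.7 and 99.1), a secreted bridge for phagocytosis, the retinol dehydrogenase gene Rdh10 (96.3 and 97.3), and Itm2b (94.8 and 98.0), which was level with Prdx6 (94.8 and 96.4) in the lower of its ranks. Of the 20, 6 ranked above 90 in both libraries, against 47.7% of all protein-coding genes. A promoter peak in both was found at 68.8% of all protein-coding genes.

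Promoter ranks were higher at the regulators of gliogenesis than at the effectors. All 16 gliogenic regulators had a promoter peak in both libraries, where 68.8% of all protein-coding genes did. Of them, 15 ranked above 90 in both, against 47.7% of all protein-coding genes. Their median ranks were 97.6 and 98.4, where all protein-coding genes with a promoter peak had 95 and 95.9. The effectors lay below those medians, at 91.6 for the 7 genes with a peak in replicate 1 and 89.9 for the 8 in replicate 2. Windows of the regulators held a median of 14.5 and 16.6 distal peaks per 100 kb, against the effectors' 7.63 and 11.3. By the lower of the 2 ranks, Lhx2 (99.8 and 99.9) and Hes5 (99.9 and 99.7) were highest. Next came Hes1 (98.7 and 99.9), which was level there, as rounded, with Hey1 and Rbpj (both 98.7). The Hes genes are Notch targets that hold cells in a progenitor or glial state. Of the regulators, Lhx2, Rax, Sox2 and Hes1 were also on a list of 10 progenitor genes. That list had median promoter ranks of 96.5 and 98.2, and 26.7 and 27.1 distal peaks per 100 kb. Values above those of the effectors were thus not particular to the gliogenic regulators.

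Counts were lower at effector genes of neurons that also mature after birth than the 7 of 8 of the Müller glia effectors. Over all protein-coding genes, 68.8% had a promoter peak in both libraries, and the counts of all these lists can be read only beside that share. Of 8 bipolar cell genes 4 had a promoter peak in both libraries, with none in either at Cabp5, Nyx and Pcp2, and the medians of those with a peak were 86.6 and 89.1. Of 8 rod genes 5 did, with none in either at Pde6a, Pde6b and Rcvrn, at median ranks of 40.7 and 53.0. Counting only peaks above the median score of their library, 7 of 8 Müller glia effector genes, 4 of 8 bipolar genes and 2 of 8 rod genes had a promoter peak in both, as did 66.0% of all protein-coding genes. The lists are short and were not matched for CpG content, and the differences between them were not tested.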

How the data were processed

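DNase-seq was done on genomic DNA of embryonic day 14.5 retina, in 2 biological replicates, per the labels. The authors deposited a peak list and a hotspot list for each library, on mm10. The deposited peak score ranges between 1 and 150 with a meaning not stated, and was ranked within its library. The deposited hotspot values are −log10 false discovery rates. The aligner and the caller were not given in the sources used here. In 12.1% and 7.80% of peaks the score has a decimal point. Exact duplicate lines (34 and 56) were removed.

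Windows were the gene body and 50 kb either side, with GENCODE M21 starts on GRCm38, the assembly of mm10. Peaks were shared at an overlap of at least 1 bp. Distances run to the peak centre. Letters were matched on both strands, and 8 RefSeq promoter entries (GRCm38) for 6 of the genes were checked as identical to the genome used. Python 3.11.15, numpy 2.4.6, pandas 2.3.3, scipy 1.17.1, pysam 0.24.0 and matplotlib 3.10.9 were used, and the counting was tested on simulated data. With 1 group there was no test. All 8 genes are named, each with its promoter peaks, its strongest shared distal peak by the lower of its ranks and any pair above rank 95 in both libraries. Of other lists, up to 3 genes whose lower promoter rank of the 2 libraries is highest and those with no peak are named. Genes tied with the third, and the 5 progenitor genes given as a check of the tissue, are named beyond that rule, after their values were seen. A few items are not reported here. The genes and lists were chosen with earlier results of these data known.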

Additional observations from a re-analysis of the deposited data

How the results depend on the processing

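Of 42 alternative values computed for 9 results, 32 were labelled the same as the values given and 10 moved. Some of those labelled the same still differed. Genes with a promoter hotspot in both libraries fell from 7 to 5 when only hotspots at the ceiling counted. The total of distal peaks over the 8 windows, averaged over the 2 libraries, was 97.0. It became 65.5, also labelled the same, when only peaks nearest to the window's own gene counted. The total moved to 154.0 with 100 kb either side, 61.0 with 25 kb and 56.5 with only peaks above the median score. The genes' median of 9.45 distal peaks per 100 kb became 6.05 when distal meant beyond 2 kb of a TSS (4.34 over all protein-coding genes) and 5.73 with only peaks above the median score (2.43 over all), and stayed above that of all genes under each alternative run. The median promoter rank, 93.2 over the 7 genes with a peak in both libraries, was 78.5 among promoter peaks and 37.8 among coding genes with one. With each library alone it ranged from 89.9 (8 genes, with Aqp4, in replicate 2) to 91.6 (7 genes in replicate 1), and over the same 7 genes replicate 2 gave 94.7. Matches of letters numbered 25 with peaks widened to 300 bp and 12 in the peaks themselves. The count of 7 genes with a promoter peak in both libraries became 8 with promoter windows of 2 kb, and 8 without replicate 1, which lacks the Aqp4 peaks. Leaving out scores with a decimal point was chosen after seeing the data and moved none of the 5 results it was run on. Depth is unknown, so no detection limit was given. No paired analysis was possible because there is 1 group.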
